A study of Homo sapiens with 4 samples.

Results

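Gastric carcinoma cells taken from ovarian metastases and from stomach tumours were compared for how their transcripts differed between a first and a second implantation. For each gene, the change from round 1 to round 2 in stomach-derived cells was subtracted from the change in ovary-derived cells, and the result is called the lineage difference, in log2 units. All 4 arrays of the series enter it, 1 for each combination of site and round. Of 18417 genes with a row of their own, 14547 had a mean level above 5.64, the 30th percentile of all rows, and were compared. A lineage difference of at least 2-fold (1 log2 unit) was found in 128 of the 14547 genes (0.88%).

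SNU-16 is an established human gastric carcinoma cell line. In round 1 these cells were placed in the stomach wall of BALB/c nude mice, animals without mature T cells, and tumour cells were recovered from the stomach wall and from ovarian metastases, dissociated and cultured for 7 days. In round 2 the stomach-derived cells were implanted again and a stomach tumour was taken, and the ovary-derived cells were implanted again and an ovarian metastasis was taken. The 4 groups are therefore stomach round 1, stomach round 2, ovary round 1 and ovary round 2, with 1 array each. Unimplanted SNU-16 cells are not analysed here. How many mice stand behind each array is not stated in the labels. For both round 2 samples the free-text description disagrees with the title: it gives the ovary as the culture source under the stomach title, and closes on a stomach tumour under the ovary title. Titles were followed here. With the round 2 arrays exchanged, 157 genes would reach 2-fold, sharing 40 with the 128 (31.2% of the 128 and 25.5% of the 157), so which lineage a round 2 level belongs to rests on the titles.

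Serial implantation selects among the cells of a tumour and exposes the survivors to a host organ and to handling, and each line carries its own history. A difference of differences asks which transcripts differ in their course between the 2 lineages after that shared start. It has 4 terms, and a level that stands out on a single array enters it as fully as a change in a lineage. For this reason the main genes below are given with their level on every array, others with the lineage difference alone, and the array standing apart is named where its distance to the nearest of the others exceeded the range of those others.

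No replicate of any combination exists, so a lineage difference has no error of its own and no test. The contrast can be fitted only by letting the site and round differences serve as the residual. Fitted in that way, limma called 0 of 14547 genes (smallest adjusted p = 1), with 194 at an unadjusted p under 0.05 where 727.4 would fall by chance, and the fit with the round as a block also called 0, with 446. A change on 1 array adds equally to site, round and lineage difference, so this fit cannot separate it from its residual. Spread between probe sets could be measured in 598 genes with several of them above the minimum. Their lineage differences had an SD of 0.19 between probe sets of the same gene on the same arrays. That value leaves out the spread between arrays and between cultures, so it is not an error of the lineage difference. The SD over all genes was 0.27, and all values below are descriptions of these 4 arrays.

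**Figure D1:**
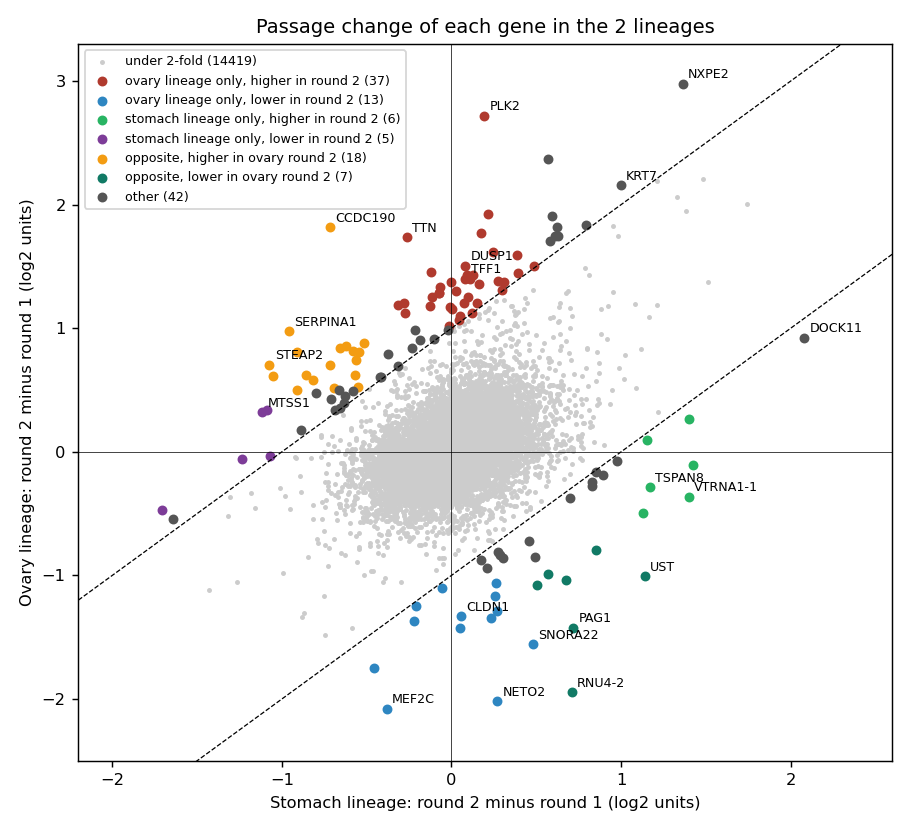
Each point is a gene, with the round 2 minus round 1 difference in stomach-derived cells on the horizontal axis and in ovary-derived cells on the vertical axis (log2 units). Dashed lines mark a lineage difference of 1 in either direction, and the 128 coloured points lie on or beyond them, 88 above and 40 below.

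The 128 genes were not spread evenly over directions or lineages. In 88 (0.605% of all genes) the difference was positive, meaning a higher passage change in the ovary lineage, and in 40 (0.275%) it was negative. In 37 genes the ovary lineage was at least 2-fold higher in round 2 while the stomach lineage moved by under 0.5 (0.254% of all genes), and in 13 it was at least 2-fold lower (0.0894%). The stomach lineage alone was higher in 6 genes (0.0412%) and lower in 5 (0.0344%). These classes are defined by size alone, and no difference between the lineages was tested. Both lineages moved by at least 0.5 in opposite directions in 25 genes, of which 18 were higher in round 2 in ovary (0.124%) and 7 were lower (0.0481%). The remaining 42 were graded (0.289%), among them 10 higher in round 2 in both lineages and 31 with unlike signs of which at least 1 lineage moved by less than 0.5. Over all genes, 130 were at least 2-fold apart between rounds in the ovary lineage (0.894%; 0.701% higher and 0.192% lower) and 38 in the stomach lineage (0.261%; 0.158% higher and 0.103% lower). The share at a 2-fold lineage difference was 0.646% among genes at or under the minimum and 3.43% among rows without a single gene symbol, which were not named.

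The array that stood apart also varied. It was ovary round 1 in 37 of the 128 genes and ovary round 2 in 31, against stomach round 1 in 13 and stomach round 2 in 5, and in 42 no single array stood apart. Over all genes tested the shares were 14.9%, 13.4%, 14.2%, 12.9% and 44.6%. In 35 of the 128 genes a gap of at least 2-fold between the lineages in round 1 was under 0.5 in round 2, and in 14 the reverse held. Among the others the gap was smaller in round 2 in 39 and larger in 40. The lineage difference is the round 2 gap minus the round 1 gap, so these counts depend on how the genes were chosen. The shares over all genes tested are not given here.

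The first set was at its highest in ovary round 2. Of the 37 genes higher in the ovary lineage alone, 14 had ovary round 2 as the array apart, among them 4 of the immediate early list (DUSP1, NR4A1, JUN and CCN2), which holds genes that cells switch on quickly after growth factors or stress. PLK2, a polo-like kinase induced by serum and by p53, stood at 6.004 and 6.196 in stomach rounds 1 and 2 and at 5.07 and 7.79 in ovary rounds 1 and 2. Its ovary lineage was thus 6.58-fold higher in round 2, the stomach lineage 1.14-fold, and the lineage difference was 2.53. The round 1 ovary level lay under the signal minimum, so part of this fold was measured near the floor of the array. The same holds for a level of LYZ, NETO2, MEF2C, OAS2, LINC00652, AGMO, RNU5D-1, RNU5F-1 and SNORD58A.

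The MAP kinase phosphatase genes DUSP1 and DUSP10 were among these genes. On the MAPK feedback list, DUSP4 had a lineage difference of 0.75, DUSP6 0.099 and DUSP5 -0.046, each under 2-fold. DUSP1, which removes phosphate from p38, JNK and ERK, was at 9.40 and 9.48 in stomach and at 8.94 and 10.45 in ovary. DUSP10, which acts on p38 and JNK, was at 7.41 and 7.29 in stomach and at 6.94 and 8.40 in ovary. For both, the stomach arrays lay close together and between the ovary arrays, and the lineage differences were 1.43 and 1.58.

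Transcription factors of the same response behaved alike. JUN, a subunit of AP-1, was at 9.07 and 9.18 in stomach and at 8.58 and 9.98 in ovary (1.29). NR4A1, an orphan nuclear receptor, was at 8.26 and 8.13 in stomach and at 8.10 and 9.28 in ovary (1.31). In NR4A1 the other 3 arrays lay close together and ovary round 2 alone was high. KLF10, a TGF-beta-inducible zinc finger factor, missed the class narrowly, with an ovary change of 0.99.

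Secreted signals and a cell cycle inhibitor completed the set. CXCL2, a neutrophil chemokine, was at 6.22 and 6.46 in stomach and at 6.10 and 7.71 in ovary (1.37). CXCL8, the chemokine interleukin-8, was at 6.54 and 6.58 in stomach and at 6.26 and 7.33 in ovary (1.03). HBEGF, an EGF receptor ligand, was at 7.28 and 7.59 in stomach and at 7.90 and 9.27 in ovary (1.07). HBEGF differed from the others in that its ovary level already exceeded both stomach levels in round 1. CDKN1A, the p21 inhibitor of cyclin-dependent kinases, was at 8.39 on both stomach arrays and at 8.35 and 9.52 in ovary (1.18). The small GTPase RHOB (1.37), the arrestin-domain gene ARRDC4 (1.36), the anion transporter family gene SLC26A5 (1.16), the matricellular protein gene CCN2 (1.05) and the endothelin gene EDN1 (1.01) had the same order, with ovary round 2 highest.

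The immediate early list showed how far this extended. Of 26 tested members, 25 had a lineage difference above 0, against 54.7% of all genes, and the median was 0.56 against 0.025 over all genes. The median passage change was 0.048 in the stomach lineage and 0.59 in the ovary lineage. At least 2-fold lineage differences were found in 5 members (19.2%, where all genes gave 0.88%), namely DUSP1, NR4A1, JUN, CCN2 and KLF10, and ovary round 2 was the array apart in 19. ATF3, a stress-induced factor, was at 8.01 and 8.05 in stomach and at 7.89 and 8.91 in ovary (0.97), just short of 2-fold. NR4A2 (0.96), CCN1 (0.95), KLF6 (0.69), IER2 (0.68), JUNB (0.62) and FOSB (0.61) followed. FOS went another way, at 9.32 and 10.19 in stomach and at 8.94 and 9.67 in ovary, higher in round 2 in both lineages and with a lineage difference of -0.15.

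Heat shock genes did not share this pattern to the same extent. Their 16 tested members had a median lineage difference of 0.12, and 10 were above 0. The member furthest from 0 was the co-chaperone DNAJA1, at 7.91 on both stomach arrays and at 7.46 and 8.16 in ovary (0.70). None of the 16 reached 2-fold.

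Most targets of p53 also had a positive lineage difference. Of 23 tested members, 21 had a lineage difference above 0, with a median of 0.32 and medians of 0.089 for the stomach change and 0.38 for the ovary change. Ovary round 2 was the array apart in 13. Those at or past 2-fold were CDKN1A and TP53INP1, a p53-inducible regulator of autophagy and apoptosis, at 6.22 and 6.81 in stomach and at 5.86 and 7.76 in ovary (1.32). MDM2, the ubiquitin ligase that degrades p53, was at 10.71 and 10.93 in stomach and at 10.60 and 11.75 in ovary (0.93). GDF15, a stress cytokine, was at 10.47 and 10.48 in stomach and at 10.65 and 11.47 in ovary (0.81). The exonuclease AEN (0.95), the kinase PLK3 (0.93) and the death receptor TNFRSF10B (0.70) were ordered likewise, whereas BAX (-0.066), CCNG1 (-0.11) and POLH (0.027) were close to 0.

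Of 20 tested NF-kB targets and chemokines, 14 were above 0 with a median of 0.32, and CXCL2 and CXCL8 reached 2-fold. The inhibitor NFKBIA, itself induced by NF-kB, was at 10.45 and 10.52 in stomach and at 10.00 and 10.71 in ovary (0.64). TNFAIP3, a ubiquitin-editing inhibitor of the pathway, was higher in round 2 in both lineages, by 0.64 in stomach and 1.20 in ovary. Ovary round 2 was the array apart in 4 of the 20 and ovary round 1 in 5, so this list was less uniform than the immediate early genes in its array apart.

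**Figure D2:**
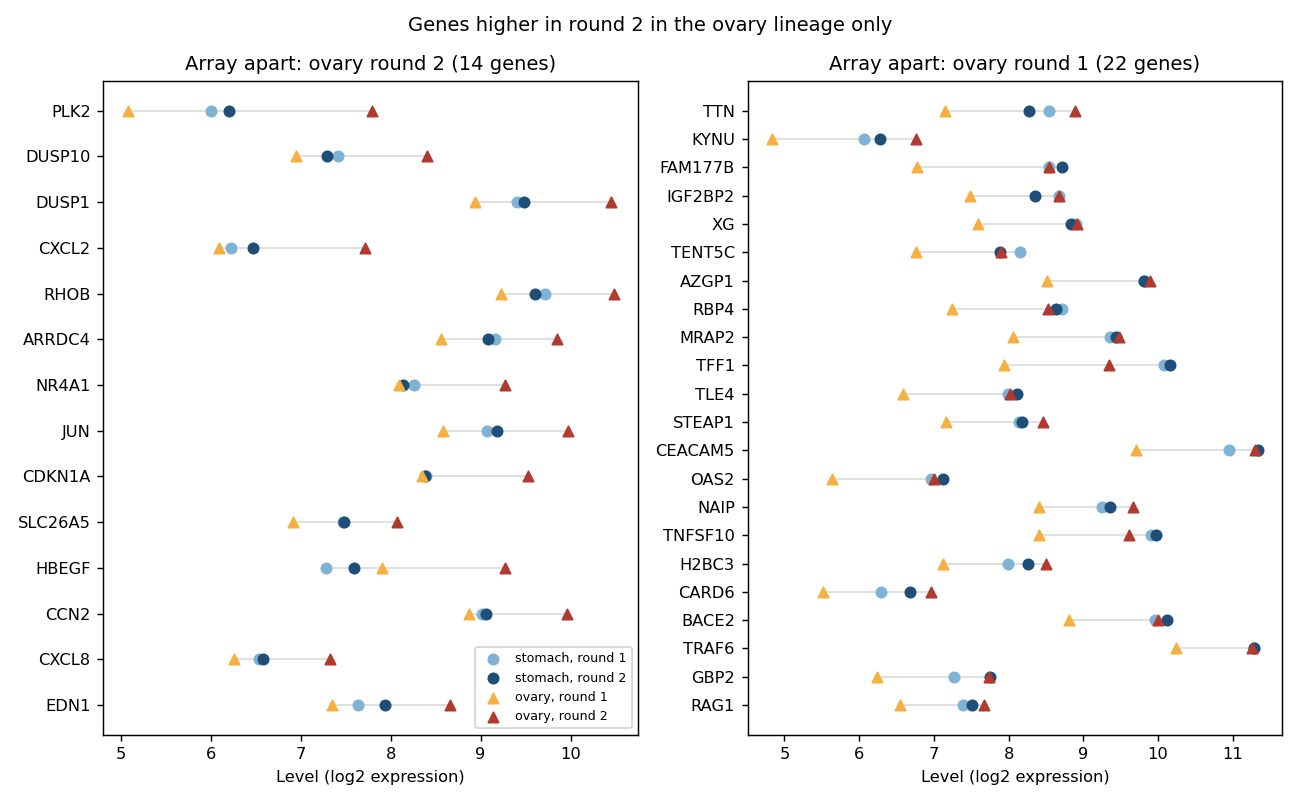
Levels (log2 expression, horizontal axis) of the 14 and 22 genes higher in round 2 in the ovary lineage only, 1 row per gene and 1 marker per array. On the left the round 2 ovary array lies away from the other 3, and on the right the round 1 ovary array does.

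Promoters of 3 genes of this set are shown because each holds a match to a motif of a stress-responsive transcription factor. They are RefSeq windows of 300 bases on GRCh38.p14, from 250 bases before the start of the gene to 50 after it, read 5′ to 3′ on the gene's strand. CXCL2 is at chr4:74099146-74099445 on the minus strand, CXCL8 at chr4:73740319-73740618 on the plus strand and DUSP1 at chr5:172771146-172771445 on the minus strand. Capitals mark a match to the NF-kB motif GGGNNTTCC in CXCL2, to the AP-1 motif TGANTCA in CXCL8 and to the cyclic AMP response element TGACGTCA in DUSP1, each searched on both strands. The matches begin 53, 137 and 125 bases before the start.
CXCL2: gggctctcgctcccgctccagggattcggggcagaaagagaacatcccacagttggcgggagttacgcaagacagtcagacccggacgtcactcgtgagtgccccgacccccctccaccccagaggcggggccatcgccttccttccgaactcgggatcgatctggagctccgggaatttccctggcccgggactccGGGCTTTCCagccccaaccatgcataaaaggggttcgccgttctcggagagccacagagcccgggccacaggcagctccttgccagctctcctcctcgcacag
CXCL8: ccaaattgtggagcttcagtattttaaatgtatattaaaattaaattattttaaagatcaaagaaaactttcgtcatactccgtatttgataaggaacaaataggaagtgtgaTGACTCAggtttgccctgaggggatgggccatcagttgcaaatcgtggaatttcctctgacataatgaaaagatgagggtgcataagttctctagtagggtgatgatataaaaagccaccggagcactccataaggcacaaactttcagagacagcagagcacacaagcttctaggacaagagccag
DUSP1: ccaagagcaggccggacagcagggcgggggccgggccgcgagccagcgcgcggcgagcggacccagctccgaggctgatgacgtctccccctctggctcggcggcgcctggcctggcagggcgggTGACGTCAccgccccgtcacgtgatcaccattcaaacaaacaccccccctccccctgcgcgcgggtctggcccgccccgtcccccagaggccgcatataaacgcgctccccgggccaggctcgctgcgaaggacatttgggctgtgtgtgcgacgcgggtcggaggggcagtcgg
Of the 128 genes 83 had a promoter window, 68 of them with a positive lineage difference. The AP-1 motif was in 11 of these 68 (16.2%), in 7.76% of all 27305 promoters and in 4.90% of those of the genes tested. The NF-kB motif was in 6 of 68 (8.82%) in 6.60% of all promoters and in 7.76% of those of the genes tested. The cyclic AMP response element was in 2 of 68 (2.94%), DUSP1 and GABBR1, in 1.98% of all and in 3.01% of those tested. The 13 windows of genes with ovary round 2 apart held the 3 marked motifs, in the order AP-1, NF-kB and cyclic AMP, in 2, 1 and 1 cases. They held the looser NF-kB pattern in 11 (84.6%), against 73.1% of promoters of the genes tested and 58.0% of all promoters. The windows of genes with ovary round 1 apart held it in 76.5%. A match of letters is not a bound site.

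The second set was at its lowest in ovary round 1. Of the 37 genes higher in the ovary lineage alone, 22 had ovary round 1 as the array apart. For these the median gap between ovary and stomach was -1.27 in round 1 and 0.027 in round 2. The genes were chosen on these same levels, and that choice limits how far ovary round 2 can lie from the stomach arrays. The small round 2 gap is therefore a description of the set and not a separate result. TFF1, the trefoil peptide of gastric surface mucus, was at 10.08 and 10.16 in stomach and at 7.94 and 9.34 in ovary (1.32), and its round 2 gap of -0.82 was still open. CEACAM5, the carcinoembryonic antigen, was at 10.95 and 11.34 in stomach and at 9.70 and 11.30 in ovary (1.21). For CEACAM5 the ovary level of round 2 was close to the stomach level of that round. Lists of such products differed in sign: 15 of 24 trefoil, mucin and secretory genes were above 0 (median 0.14, TFF1 and LYZ at 2-fold), against 3 of 12 gastric lineage genes (-0.080) and 9 of 23 intestinal brush border genes (-0.075), with none at 2-fold in the last 2 lists.

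Secreted carrier proteins gave the same order of arrays. AZGP1, zinc-alpha-2-glycoprotein, was at 9.81 on both stomach arrays and at 8.52 and 9.89 in ovary (1.37). RBP4, the retinol carrier of plasma, was at 8.71 and 8.64 in stomach and at 7.24 and 8.52 in ovary (1.35). In both genes the 3 arrays other than ovary round 1 lay close together. FAM177B, at 8.54 and 8.71 in stomach and at 6.77 and 8.54 in ovary, had a round 1 gap of -1.77, the widest of the 22 genes other than TFF1.

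Other members of this set covered several functions. TTN, the giant sarcomere protein titin, was at 8.54 and 8.27 in stomach and at 7.15 and 8.89 in ovary (2.00), the largest difference of this set. KYNU, kynureninase of tryptophan breakdown, was at 6.07 and 6.28 in stomach and at 4.83 and 6.75 in ovary (1.71), with its round 1 ovary level under the signal minimum. IGF2BP2, an RNA-binding protein, was at 8.67 and 8.35 in stomach and at 7.48 and 8.67 in ovary (1.503). The corepressor TLE4 (1.31), the non-canonical poly(A) polymerase TENT5C (1.40), the melanocortin receptor accessory protein MRAP2 (1.34), the blood group gene XG (1.40), the metalloreductase family member STEAP1 (1.27) and the protease BACE2 (1.05) had the same shape. H2BC3, a histone H2B gene (1.11), shares much of its sequence with other H2B genes and is uncertain for that reason.

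Genes of innate defence were present in this set as well. OAS2, an interferon-induced oligoadenylate synthetase, was at 6.96 and 7.13 in stomach and at 5.64 and 7.00 in ovary (1.20). GBP2, a guanylate-binding protein induced by interferon, was at 7.27 and 7.75 in stomach and at 6.24 and 7.74 in ovary (1.02), and its other probe set gave 0.55. TNFSF10, the death ligand TRAIL, was at 9.91 and 9.98 in stomach and at 8.41 and 9.61 in ovary (1.13). NAIP, an inflammasome sensor, was at 9.26 and 9.35 in stomach and at 8.40 and 9.66 in ovary (1.16). Both of its other probe sets gave 1.17, with identical values on every array, so they count as a single reading. SAMD9L was higher in round 2 in both lineages, by 0.79 in stomach and 1.83 in ovary (1.04), from 9.06 in stomach round 1 and 7.62 in ovary round 1. Of 23 tested interferon response genes, ovary round 1 was the array apart in 11 and ovary round 2 in 0, while the median lineage difference was 0.13 and 15 were above 0. IFITM3 went the other way (-0.73), at 6.25 and 5.50 in stomach and at 7.41 and 5.93 in ovary. Of 11 MHC class I genes, 9 were above 0 with a median of 0.22, ovary round 1 stood apart in 5, and none reached 2-fold.

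Neighbouring genes on chromosome 11 had this shape in common, as was seen once the values were known. TRAF6 and RAG1 are next to each other in the gene order, and the 7 tested genes from TRIM44 to IFTAP all had their lowest level in ovary round 1. The lineage differences of the 7 ran from 0.56 to 1.09 with a median of 0.76. Their median gap between ovary and stomach was -0.85 in round 1 and 0.13 in round 2. TRAF6, a ubiquitin ligase of innate immune signalling, was at 11.29 and 11.28 in stomach and at 10.24 and 11.26 in ovary. TRIM44, a tripartite motif protein, was at 10.24 and 10.06 in stomach and at 9.31 and 10.22 in ovary. On one side of this stretch, in the gene order, lie FJX1, SLC1A2, CD44 and PDHX, of which the last 3 are on the list of amplified loci of SNU-16. FJX1, directly next to TRIM44, had a lineage difference of 0.82 with no single array apart, and SLC1A2 had -0.27. CD44 was at 13.37 and 13.28 in stomach and at 13.41 and 13.32 in ovary, a lineage difference of -0.00082. On the other side API5 stood at 10.16 and 10.58 in stomach and at 10.71 and 10.60 in ovary (-0.53). Further along, EXT2, an enzyme of heparan sulfate synthesis, again had ovary round 1 apart, at 10.49 and 10.47 in stomach and at 9.89 and 10.48 in ovary (0.61), and ACCS had 0.44. The ends of the stretch were set after the values were seen.

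**Figure D3:**
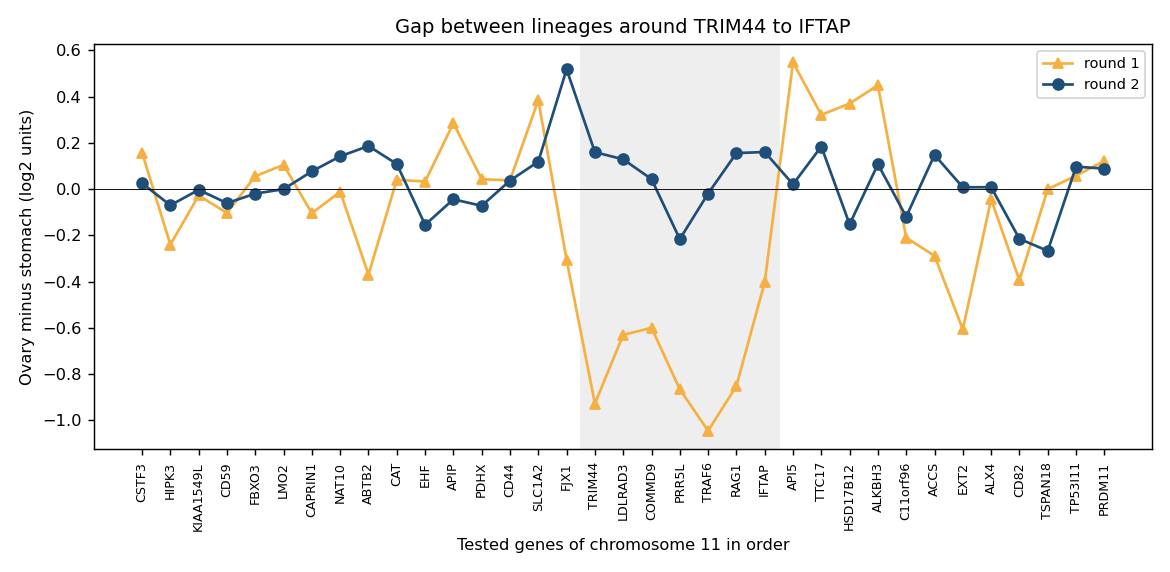
Ovary minus stomach (log2 units, vertical axis) in round 1 and in round 2 for tested genes of chromosome 11 in their order along the chromosome (horizontal axis, not to scale). In the shaded run of 7 genes from TRIM44 to IFTAP the round 1 line lies below 0 and the round 2 line near it, from -0.22 (PRR5L) to 0.16 (IFTAP).

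Over windows of 25 neighbouring tested genes, the extremes lay elsewhere on chromosome 11 and on chromosome 5. Between SRSF8 and ATM on chromosome 11, 24 of 25 genes had a negative lineage difference, with a median of -0.48, a stomach change of 0.39 and an ovary change of -0.051. MAML2, a NOTCH coactivator in that window, was at 7.77 and 8.67 in stomach and at 8.46 and 8.27 in ovary (-1.08). Between CDK7 and ANKDD1B on chromosome 5, 22 of 25 were positive, with a median of 0.40, and NAIP is among them. The 1st and 99th percentiles over all 13973 overlapping windows were -0.28 and 0.19.

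Of the 13 genes lower in round 2 in the ovary lineage alone, 4 had ovary round 1 as the array apart, 6 had ovary round 2 and 3 had none (PDE3A, ALDH1A1 and SNORD41). NETO2, an auxiliary subunit of kainate receptors, was at 5.55 and 5.82 in stomach and at 7.77 and 5.76 in ovary (-2.29). MEF2C, a MADS-box transcription factor, was at 6.09 and 5.71 in stomach and at 7.65 and 5.57 in ovary (-1.70). CLDN1, a tight junction claudin, was at 7.25 and 7.31 in stomach and at 8.998 and 7.67 in ovary (-1.38). COCH was at 5.98 and 5.76 in stomach and at 7.63 and 6.26 in ovary (-1.15). In these 4 genes ovary round 1 was the array apart, by being high, and the stomach arrays were both low. Among 29 epithelial junction genes, CLDN1 included, 19 were above 0 with a median of 0.11, and CLDN1 was the lowest. PDE3A, a phosphodiesterase, was at 7.30 and 6.84 in stomach and at 8.11 and 6.36 in ovary (-1.29), and ALDH1A1, a retinaldehyde dehydrogenase, at 9.68 and 9.63 in stomach and at 10.20 and 9.10 in ovary (-1.04), with no single array apart.

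Small structural RNAs made up 19 of the 40 genes with a negative lineage difference and 0 of the 88 with a positive one. Of the 88, 85 were protein-coding and 3 long non-coding. Among the 14547 genes tested, 13593 were protein-coding and 419 long non-coding, so most genes of any set would be protein-coding. Small nucleolar RNAs numbered 119, small nuclear RNAs 19 and vault RNAs 2 among the genes tested. Small nucleolar RNAs guide the modification of ribosomal RNA and are mostly cut from introns of other genes, and small nuclear RNAs are the RNA parts of the spliceosome. RNU4-2, a U4 RNA, was at 7.30 and 8.01 in stomach and at 8.90 and 6.95 in ovary (-2.65), the lowest value of all genes. RNU4-1, a near-identical copy whose signal may be shared with it, was at 10.87 and 10.92 in stomach and at 11.56 and 10.13 in ovary (-1.47). SNORA22 was at 11.38 and 11.85 in stomach and at 12.01 and 10.45 in ovary (-2.04), SNORA23 at 12.89 and 13.12 in stomach and at 13.16 and 11.81 in ovary (-1.57). In SNORA22 and SNORA23 ovary round 2 was the array apart, by being low.

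Most of the class lay on the same side. Of 119 tested small nucleolar RNAs, 80 had a lineage difference below 0, against 45.2% of all genes, and the median was -0.28. Their median stomach change was 0.059 and their median ovary change -0.22. At least 2-fold lower were 13 (10.9%, where all genes gave 0.275% in this direction), and 0 were 2-fold higher. Ovary round 2 was the array apart in 32 of the 119 and ovary round 1 in 12. Of 19 small nuclear RNAs, 14 were below 0 with a median of -0.21 and 4 passed 2-fold. The classification by RNA type was added after values had been seen.

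The genes that contain these small RNAs were compared with them. For 67 small nucleolar RNAs a single tested protein-coding gene contained the RNA, and 48 of the 67 had a lower lineage difference than that gene. The 50 containing genes had a median of 0.0079 and none passed 2-fold. SNORD45A (-1.12) and SNORD45B (-1.72) lie within RABGGTB, a subunit of Rab geranylgeranyl transferase, which had 0.26. SNORD58A (-1.62) lies within RPL17, a ribosomal protein gene with -0.071, and SNORA20 (-1.56) within TCP1, a chaperonin gene with 0.12. Containing genes with a negative difference of some size were IPO7, a nuclear import receptor, with -0.39 for SNORA23, and the ribosomal protein gene RPL7A with -0.43 for SNORD36B (-1.07). Both were lower in round 2 in the ovary lineage (-0.36 and -0.19), as were their small RNAs. SNORD41 (-1.43) lies within TNPO2, with 0.034, and SNORD82 (-1.11) within NCL, with 0.14. RPL17 (-0.25), TNPO2 (-0.19) and NCL (-0.089) were also lower in round 2 in the ovary lineage, whereas TCP1 (0.032) and RABGGTB (0.19) were higher.

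**Figure D4:**
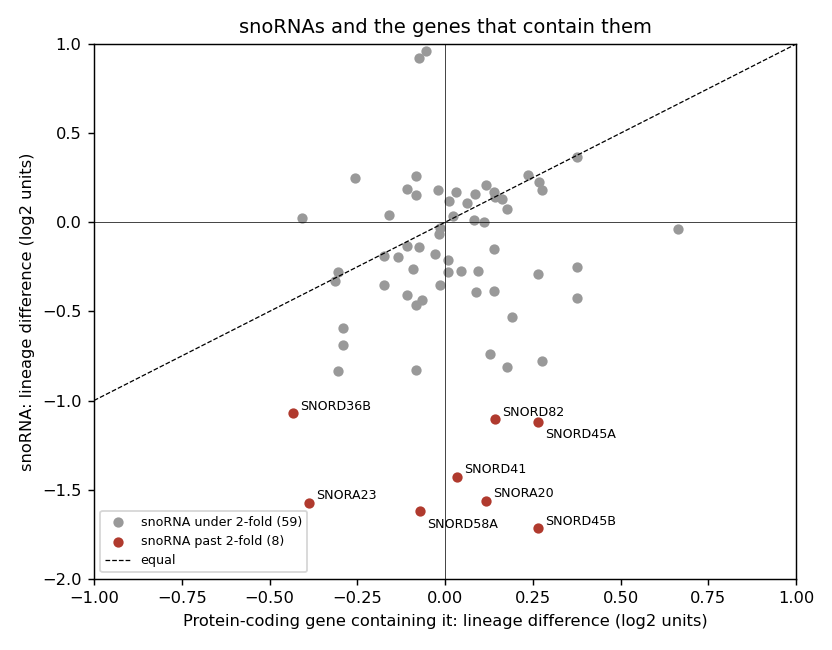
Lineage difference of 67 small nucleolar RNAs (vertical axis) against that of the protein-coding gene containing each (horizontal axis), both in log2 units, with a dashed line of equality. The 8 named RNAs lie below -1 while their containing genes lie between -0.43 and 0.26.

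In 25 genes the lineages moved in opposite directions. SERPINA1, alpha-1-antitrypsin, was at 8.96 and 8.003 in stomach and at 6.95 and 7.93 in ovary (1.93), so a gap of -2.01 in round 1 was -0.072 in round 2. LYZ, lysozyme, was at 6.83 and 6.17 in stomach and at 5.53 and 6.37 in ovary (1.496), and FSCN1, an actin-bundling protein, at 10.74 and 9.82 in stomach and at 9.40 and 9.90 in ovary (1.41). NDRG2 and FFAR2, a receptor of short-chain fatty acids, had round 1 gaps of -1.20 and -1.18 and round 2 gaps of 0.28 and 0.29. In these 5 genes the lineages were at least 2-fold apart in round 1 and within 0.5 in round 2.

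Other genes of this class changed places. STEAP2, a metalloreductase next to STEAP1 in the gene order, was at 9.97 and 8.90 in stomach and at 9.05 and 9.75 in ovary (1.78). TPST1, a tyrosine sulfotransferase, was at 8.11 and 7.20 in stomach and at 7.26 and 8.06 in ovary (1.72). In both, the site with the higher level differed between the rounds, and the gap was of like size in each. CCDC190 (2.54, the highest value of all genes) was at 6.49 and 5.77 in stomach and at 5.24 and 7.05 in ovary, with its round 1 ovary level under the signal minimum. ROR1, a receptor of WNT5A, was at 7.73 and 6.68 in stomach and at 7.22 and 7.83 in ovary (1.66), and MAP2K6, a kinase activating p38, at 6.76 and 6.04 in stomach and at 6.53 and 7.24 in ovary (1.42). These 2 genes were farther apart in round 2 than in round 1.

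In the other direction, UST, a uronyl sulfotransferase, was at 5.96 and 7.10 in stomach and at 7.81 and 6.80 in ovary (-2.15). PAG1, a membrane adaptor that recruits the kinase CSK, was at 7.04 and 7.76 in stomach and at 8.58 and 7.16 in ovary (-2.14). The other members of this direction were the spliceosomal RNAs RNU4-2, RNU5D-1 (-1.64) and RNU5F-1 (-1.58) and the small nucleolar RNAs SNORD45B and SNORA20.

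The stomach lineage alone moved in 11 genes. Higher in stomach round 2 were TSPAN8, a tetraspanin, at 6.89 and 8.06 in stomach and at 7.93 and 7.65 in ovary (-1.45), and PYGL, liver glycogen phosphorylase, at 6.22 and 7.62 in stomach and at 7.22 and 7.49 in ovary (-1.14). GPRC5A, a receptor induced by retinoic acid, was at 8.40 and 9.55 in stomach and at 9.42 and 9.52 in ovary (-1.05). In these 3 genes stomach round 1 was the array apart, by being low, so stomach round 2 had come near the ovary levels. The others of this direction were VTRNA1-1, a vault RNA (-1.76), SCARNA9 (-1.54) and SNORD58A. SCARNA9 had -0.50 on its other probe set.

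Lower in stomach round 2 alone were 5 genes. MTSS1, a membrane-bending actin regulator, was at 7.60 and 6.49 in stomach and at 6.75 and 7.08 in ovary (1.44). The potassium channel subunit KCNB2 was at 7.52 and 5.81 in stomach and at 6.85 and 6.38 in ovary (1.24). DNAAF9 was at 7.35 and 6.26 in stomach and at 7.23 and 7.57 in ovary (1.42), so only its round 2 stomach level was low. LINC00652 (1.17) had that shape too, while AGMO, an alkylglycerol monooxygenase (1.03), was high in stomach round 1 alone.

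Of the graded differences, 11 were in genes whose lineages moved the same way by unequal amounts. KRT7, a simple epithelial keratin, was at 8.68 and 9.68 in stomach and at 7.73 and 9.89 in ovary (1.16). OSMR, the oncostatin M receptor, was at 8.79 and 9.41 in stomach and at 7.73 and 9.55 in ovary (1.20), DAB2, an endocytic adaptor, at 9.13 and 9.71 in stomach and at 7.48 and 9.18 in ovary (1.12). NXPE2 was at 6.31 and 7.68 in stomach and at 5.04 and 8.02 in ovary, its round 1 ovary level being under the signal minimum. It was 2.57-fold higher in round 2 in the stomach lineage and 7.87-fold in the ovary lineage. In the opposite sense DOCK11, a guanine nucleotide exchange factor of CDC42, was 4.22-fold higher in the stomach lineage and 1.90-fold in the ovary lineage (-1.16). DAB2, OSMR and DOCK11 each had their lowest level in a round 1 array.

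Cell division genes leaned towards the stomach lineage. Of 28 genes of the G2 and M phases, 24 had a negative lineage difference and the median was -0.22, with median passage changes of 0.24 in stomach and 0.0026 in ovary. CCNB2, cyclin B2, was at 10.58 and 10.93 in stomach and at 10.92 and 10.75 in ovary (-0.52), and HMMR, a spindle-associated protein, at 8.30 and 8.74 in stomach and at 8.80 and 8.70 in ovary (-0.54). None of the 28 reached 2-fold. Genes of G1/S and DNA replication had a median of 0.073, with 17 of 27 above 0.

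**Figure D5:**
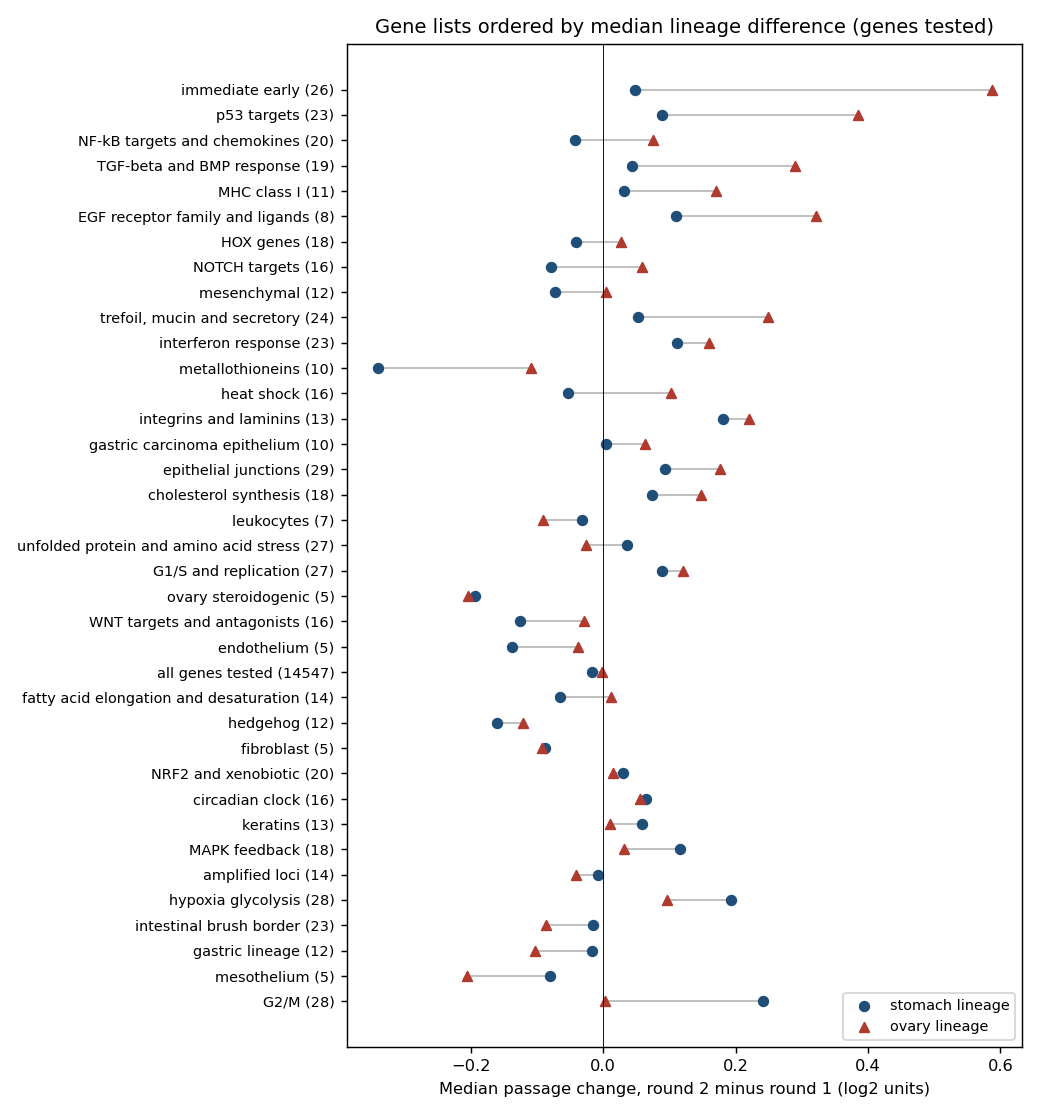
Median passage change (log2 units, horizontal axis) of 36 gene lists and of all genes tested, in the stomach lineage (circles) and in the ovary lineage (triangles), with the number of genes tested after each name. The immediate early list (0.048 and 0.59) and the p53 targets (0.089 and 0.38) head the order, and the G2/M list (0.24 and 0.0026) ends it.

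The remaining lists are given by their count above 0 and median lineage difference. The TGF-beta and BMP response list had 14 of 19 above 0 (0.23), with CCN2 at 2-fold, and EGF receptor family genes and ligands had 7 of 8 (0.21), with HBEGF at 2-fold. HOX genes had 12 of 18 (0.19), NOTCH targets 12 of 16 (0.16), mesenchymal genes 9 of 12 (0.14) and metallothioneins 7 of 10 (0.13). Cholesterol synthesis genes had 12 of 18 (0.080), unfolded protein and amino acid stress genes 14 of 27 (0.075) and WNT targets and antagonists 9 of 16 (0.051). Fatty acid elongation and desaturation genes had 8 of 14 (0.0057), hedgehog genes 6 of 12 (0.0027) and NRF2 and xenobiotic genes 8 of 20 (-0.0052), the last with ALDH1A1 at 2-fold. Clock genes had 6 of 16 (-0.034), keratins 6 of 13 (-0.040, with KRT7 at 2-fold), MAPK feedback genes 8 of 18 (-0.045), amplified loci 6 of 14 (-0.047) and hypoxia and glycolysis genes 12 of 28 (-0.072). Integrins and laminins had 9 of 13 above 0 (0.12). ITGA5, the fibronectin receptor subunit, was the single such gene among 13 integrins and laminins, at 6.69 and 6.47 in stomach and at 6.58 and 7.57 in ovary (1.21).

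Epithelial and SNU-16 markers had medians between 12.01 and 12.26 on the 4 arrays. Markers of leukocytes, endothelium, fibroblasts, mesothelium and ovarian steroidogenic cells had medians between 5.46 and 6.47. No measured member of these 5 lists reached a lineage difference of 2-fold, and their extremes were -0.73 and 0.39. In a cultured population, fewer cells of a kind and less RNA per cell cannot be told apart. Host cells would be mouse cells, whereas the rows are annotated to human genes. These marker levels therefore do not show whether host cells were present.

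Just inside the threshold were RAG1 and KLF10 (both 1.01) in the positive direction and ARHGAP42 (-1.01) and HCG8 (-1.04) in the negative. The other probe set of ARHGAP42 gave 0.16, of the opposite sign and under 2-fold. Just outside were ATP10B and IDI2-AS1 (1.00 each, rounded up) and FANCF (-0.96) and SNORD46 (-0.94).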

How the data were processed

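Tumour-derived SNU-16 cultures were profiled on Affymetrix whole-transcript arrays, 1 per combination of site and round. The authors deposited log2 expression values for 33297 rows, made with Affymetrix Expression Console per the submitters' processing notes, and the normalization setting is not stated in the labels. Array medians lay between 6.80 and 6.84. Platform annotation gave 1 gene symbol to 19460 rows, several to 1754 and none to 12083, and only the first were used. Of these, 19429 were found in the RefSeq table of GRCh38.p14. Where a gene had several rows (769 genes), the row of highest mean was taken, and 3870 genes with a mean at or below 5.64 were removed.

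The lineage difference was computed in Python 3.11.15 with pandas 2.3.3 and numpy 2.4.6, figures in matplotlib 3.10.9, and the fit in limma 3.58.1 under R 4.3.3. The contrast has no residual among replicates, so its values carry no p. A lineage counted as unmoved under 0.5. The computation was tested on simulated data. Array number, 1 per combination, limits the precision.

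Named genes were the 15 highest and 15 lowest differences, the top 8 of each class and direction, up to 4 of each of 36 gene lists (722 symbols), all genes of a class of 5 or fewer, and 2 genes on each side of the threshold. Genes named beyond these were chosen after their values were seen. The members and lists were chosen with earlier results of these data known. Alternatives covered scaling, probe set choice, signal minimum, thresholds, limma settings and exchanged round 2 labels.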

Additional observations from a re-analysis of the deposited data

Results flagged for a closer look

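In the genes below the 2 lineages moved in opposite directions on passage, each by at least 0.5 on the log2 scale and with 1 array per combination, so that the difference was not tested. With the ovary lineage higher in round 2 and the stomach lineage lower, the lineage differences were 2.54 for CCDC190, 1.93 for SERPINA1, 1.78 for STEAP2, 1.72 for TPST1, 1.66 for ROR1, 1.496 for LYZ, 1.48 for NDRG2 and 1.47 for FFAR2. With the ovary lineage lower and the stomach lineage higher, they were -2.65 for RNU4-2, -2.15 for UST, -2.14 for PAG1, -1.72 for SNORD45B, -1.64 for RNU5D-1, -1.58 for RNU5F-1 and -1.56 for SNORA20. RNU4-2 and the U5 genes have near-identical copies, and their signals are uncertain.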

How the results depend on the processing

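Quantile normalization and median centring kept every count within 1.5 times, and each gave 120 genes at 2-fold. Under both, the lineage difference of all 187 named genes shifted by less than 0.19. The sign of differences near 0 was not checked. A 1.5-fold threshold gave 307 higher and 233 lower, with 146 and 62 in ovary only, 47 and 42 in stomach only and 218 graded. A 3-fold threshold gave 11 and 10, with 4 and 2 in ovary only, 0 and 0 in stomach only, 5 opposite with ovary higher and 5 graded. Calling a lineage unmoved under 0.25 left 6 lower in ovary only and 2 higher and 2 lower in stomach only, with 36 and 22 opposite. A minimum at the 50th percentile left 93 genes at 2-fold and 2 lower in stomach only. List medians were then 0.22 for keratins (-0.04 before) and -0.73 for mesothelium (-0.11 before), from fewer genes. The mesothelium value was that of MSLN alone. The other probe set of ARHGAP42 gave 0.16. Limma with the replicate block by round called 0 genes, as did the other limma settings. Leaving out an array leaves no contrast.

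Exchanging the round 2 labels turns the contrast into a difference between sites. It gave 79 lower, 10 higher in stomach only, and 10 and 14 opposite with ovary higher and lower. Among the 187 named genes, a reversal was counted only where the lineage difference was at least 2-fold. Smaller differences could change sign without being counted. By that rule 31 reversed. Those turning negative were CCDC190 (-0.031), CCN2 (-0.75), CDKN1A (-1.09), CXCL2 (-1.13), CXCL8 (-0.47), DNAAF9 (-1.20), DUSP1 (-0.50), DUSP10 (-0.64), HBEGF (-2.31), ITGA5 (-0.98), JUN (-0.31), KLF10 (-0.075), LINC00652 (-2.23), MGAM (-1.73), NR4A1 (-0.98), PLK2 (-0.67), ROR1 (-0.63), TP53INP1 (-0.59) and TPST1 (-0.014). Those turning positive were ALDH1A1 (0.013), HCG8 (0.38), RNU4-1 (0.10), RNU5D-1 (0.037), RNU5F-1 (0.025), SNORA20 (0.29), SNORA22 (0.76), SNORA23 (1.04), SNORD35A (0.33), SNORD41 (0.22), SNORD45B (0.34) and VTRNA1-1 (0.58).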

Other observations

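Rows without a single gene symbol reached a 2-fold lineage difference more often, in 272 of 7941 above the minimum (3.43%), and were not named here. Among genes at or under the minimum 25 of 3870 did so (0.646%). By mean level, the share was 0.940% up to 7, 0.922% from 7 to 9 and 0.740% above 9. The probe set of METTL15, a gene of chromosome 11, has a number that lies among those of chromosome 3, the 1 such case of 127 genes at 2-fold that were checked. None of 61 tested microRNA genes reached 2-fold, and their median was 0.096.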
